A study of Sus scrofa with 8 samples.

Results

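In porcine muscle satellite cells, 3658 regions of accessible chromatin were called in both WT libraries at 0 h and in none of the other 6 libraries of the study. They were chosen by merging the authors' ATAC-seq peaks of all 8 libraries wherever they overlapped by 1 bp on chromosomes 1 to 18 and X, which gave 178498 regions, and by keeping those called in both WT 0 h libraries alone. The WT 0 h only regions made up 2.05% of all regions and 3.44% of the 106384 regions called in both WT 0 h libraries. The rule used the calls in every library, so the number and the strength of these regions are descriptions without a test.

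The study compared 4 groups of 2 libraries, labelled CBP 60 h, WT 60 h, CBP 0 h and WT 0 h. The 60 h groups are labelled as differentiation and the 0 h groups as proliferation. All libraries are labelled as muscle satellite cells of pig, with the cell line given as C3H, and the same treatment text with SGC-CBP30 stands on every library. It names 48 h of treatment in proliferation and 60 h in differentiation, and does not say which groups were treated, so the groups are called by their labels. The title of the series concerns CBP in satellite cell differentiation. The design text speaks of repeats in 3 groups, while 2 libraries per group were analysed here. The labels do not say if the 2 libraries of a group were made from different animals or cultures. A p-value here gives the share of exchanges of library labels with a difference at least as large as that seen. It speaks only for these libraries, whose differences may be technical.

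Satellite cells are the stem cells of skeletal muscle, which divide when activated and then fuse into muscle fibres. CBP, encoded by CREBBP, and its relative EP300 are acetyltransferases that mark active enhancers, and SGC-CBP30 is a small molecule that binds their bromodomains. In ATAC-seq a transposase inserts adapters into open DNA, and a called peak marks a promoter, an enhancer or another site where reads pile up over the local background.

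The number of peaks was 88871 and 87977 in the CBP 60 h libraries, 86282 and 82696 in WT 60 h, 135528 and 121757 in CBP 0 h, and 127394 and 134181 in WT 0 h. Read totals were recovered only as relative depth, in units of the shallowest library. It was 1.21 and 1.08 in CBP 60 h, 1.11 and 1 in WT 60 h, 1.98 and 1.43 in CBP 0 h, and 1.69 and 2.08 in WT 0 h. CBP 0 h replicate 1 was therefore deeper than WT 0 h replicate 1, while all 60 h libraries were shallower than every 0 h library. The satellite cell transcription factor gene PAX7 had calls at 8 to 12 of its 42 linked regions in the 60 h libraries and at 23 to 25 in the 0 h libraries. None of the 42 was a WT 0 h only region. The 60 h libraries also called fewer regions in general. Over regions more than 10 kb from a WT 0 h only region, they called 44.0% to 48.0%, and the 0 h libraries 64.8% to 74.5%. At 60 h and 0 h, MYOD1 had calls at 4 to 6 and 6 to 7 of 8 linked regions. DES had 3 to 4 and 4 to 5 of 5, and NCAM1 7 and 12 to 15 of 21. At gene ends, 9 to 11 of 14 myogenic regulators had a call in each library. So had 15 to 18 of 22 fibroblast and matrix genes and 9 to 10 of 16 adipogenic genes. The other lists had 5 to 7 of 13 endothelial markers, 5 to 7 of 12 immune markers and 5 of 9 neural and Schwann markers. Satellite cell and Notch genes had 12 to 17 of 21. These counts do not set the myogenic list apart from the fibroblast and matrix list. The adipogenic, endothelial, immune and neural lists had lower shares than the myogenic list in every library. A call marks open DNA and not expression, and a share of cells of another type was not tested.

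WT 0 h only regions were weak and narrow peaks. Their authors' −log10 q, the caller's adjusted significance at the summit, had a median of 4.60 in the weaker of the 2 WT 0 h libraries, with quartiles of 3.41 and 6.15. In the other regions called in both WT 0 h libraries the median was 13.4, with quartiles of 7.05 and 26.1. Within the list of WT 0 h replicate 1 the WT 0 h only regions had a median rank at the percentile 19.8, and within that of replicate 2 at 20.7. The authors' fold over local background had a median of 3.56 and 3.37 in replicates 1 and 2, against 5.18 and 4.99 in the other regions called in both. The weaker −log10 q was at least 5 in 1465 of them and at least 10 in 134. Merged width had a median of 422 bp, against 962 bp in the other regions called in both WT 0 h libraries. The distance between the summits of the 2 libraries had a median of 33 bp, against 21 bp.

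**Figure D1:**
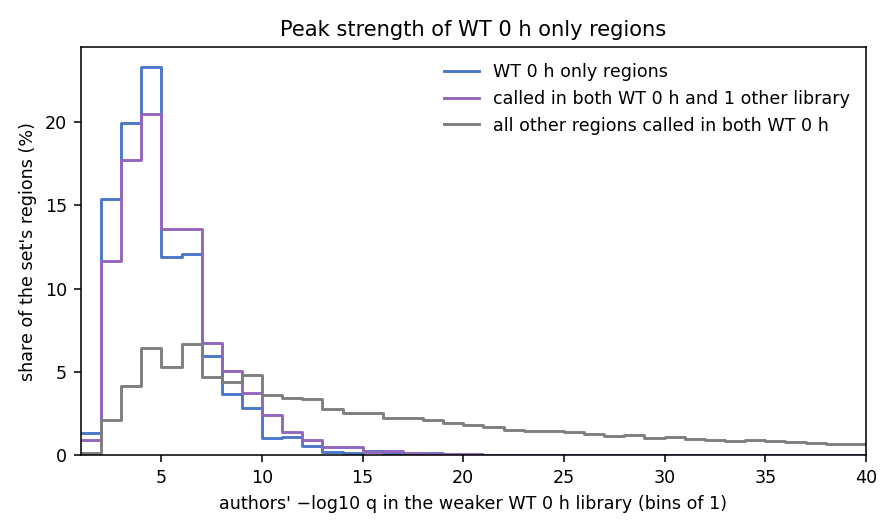
Share of regions (vertical axis, %) by the authors' −log10 q in the weaker WT 0 h library (horizontal axis, bins of 1, shown up to 40) for WT 0 h only regions, regions called in both WT 0 h and 1 other library, and all other regions called in both. The WT 0 h only regions lie at the low end, with a median of 4.60 against 13.4 for all the other regions.

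At the edge of the rule, the weakest WT 0 h only region had a −log10 q of 1.36 in its weaker library. Just outside the rule stood 5708 regions called in both WT 0 h libraries and in 1 other library, with a median weaker −log10 q of 4.93 and a median width of 495 bp. That other library was CBP 0 h replicate 1 for 3440 of them and CBP 0 h replicate 2 for 1125. At 60 h it was a CBP library for 157 and 160 of them, and a WT library for 507 and 319.

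The calls at 60 h can be compared on regions chosen without them, a comparison added after seeing the data. Of 6194 regions called in both WT 0 h and neither CBP 0 h library, 3658 (59.1%) had no call at 60 h and are the WT 0 h only regions. CBP 60 h replicates 1 and 2 called 14.7% and 15.6% of the 6194 regions, while WT 60 h replicates 1 and 2 called 27.0% and 22.3%. Over all 178498 regions the CBP 60 h libraries called 47.0% and 46.0% and the WT 60 h libraries 45.1% and 43.1%, a difference of 2.39 percentage points in the other direction. The groups did not overlap in the 6194 regions. Their mean was 15.2% ± 0.662 in CBP 60 h and 24.7% ± 3.26 in WT 60 h (SD, n = 2 each), a difference of -9.49 percentage points (two-sided exact permutation p = 0.333, the smallest that 2 against 2 libraries allow). The difference was -22.1 points when every list was cut to its 82696 strongest peaks. It was -3.94 points without WT 0 h replicate 1 and -4.64 without WT 0 h replicate 2.

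The reverse set behaved in the opposite way in value. Of 4474 regions called in both CBP 0 h and neither WT 0 h library, CBP 60 h called 21.9% and 20.2%, and WT 60 h called 7.60% and 7.62%. This difference of 13.5 percentage points stands beside 2.39 over all regions, where the CBP 60 h lists were the longer ones. In that set 2887 regions (64.5%) had no call at 60 h. The sites that separated the labels at 0 h were thus called at 60 h more often under the label they had at 0 h, in each of the 4 libraries, although most of them were called in no 60 h library.

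Relative to regions farther away, regions around the WT 0 h only regions were called more often in WT than in CBP libraries. For this measure, 7794 regions that were not themselves WT 0 h only but lay within 10 kb of one were set against the 167046 regions farther away. Of the neighbours, the CBP 60 h libraries called 46.9% and 46.4%, WT 60 h 48.4% and 45.5%, CBP 0 h 74.3% and 65.1%, and WT 0 h 69.1% and 73.5%. These shares alone did not separate the labels: the highest was that of CBP 0 h replicate 1, and WT 60 h replicate 2 lay below both CBP 60 h libraries. Less the share called farther away, which differed between libraries, the values were -1.06 and -0.687 percentage points in CBP 60 h, 2.51 and 1.57 in WT 60 h, -0.182 and 0.317 in CBP 0 h, and 2.48 and 2.92 in WT 0 h. In this difference every WT library stood above every CBP library, at both times.

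The mean was -0.404 ± 0.601 points over CBP libraries and 2.37 ± 0.569 over WT libraries (SD, n = 4 each), a difference of -2.77 points (two-sided exact permutation p = 0.0286, the smallest that 4 against 4 libraries allow). This comparison of labels was chosen after the data had been seen. The rule required calls in WT 0 h and excluded calls in CBP 0 h, so the 0 h values were not free of it. Any p-value that includes them is therefore no independent support for a difference between the labels. With labels exchanged only within each time the exact permutation p was 0.0556, the smallest that those 36 arrangements allow. At 60 h alone, where the rule treated CBP and WT alike, the difference was -2.91 points, and at 0 h it was -2.63 (exact permutation p = 0.333 for each, the smallest possible). The planned comparison of the other 6 libraries (0.410 points) with WT 0 h (2.70 points) gave a difference of -2.29 points and did not pass (exact permutation p = 0.107).

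The difference between labels no longer passed when the members were chosen without 1 of 3 libraries. It was -1.75 points without WT 0 h replicate 1 (exact permutation p = 0.171), -1.73 without WT 0 h replicate 2 (exact permutation p = 0.143) and -1.87 without CBP 0 h replicate 1 (exact permutation p = 0.0857). In each of these 3 cases the values of CBP and WT libraries overlapped. The rule requires a peak of both WT 0 h libraries at a member and admits none of the other 6 libraries, so the closest neighbours were also left out. With neighbours from 1 kb to 10 kb only, the difference was -1.89 points (exact permutation p = 0.0286). This setting cannot exclude an influence of the rule beyond 1 kb.

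**Figure D2:**
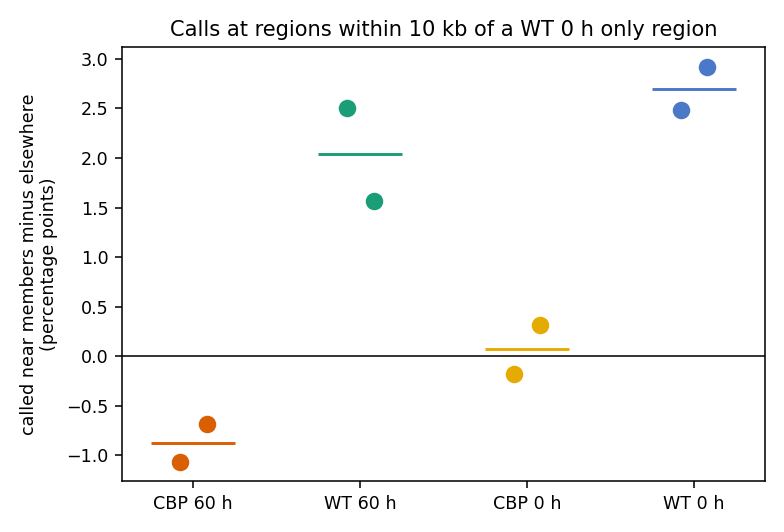
Each point is 1 library, and each horizontal line the mean of its group. The vertical axis gives the share of regions within 10 kb of a WT 0 h only region that were called, less the share of regions farther away (percentage points). The 4 WT libraries lie between 1.57 and 2.92 and the 4 CBP libraries between -1.06 and 0.317.

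The same 60 h calls can be counted by region, which adds no separate evidence. Among the neighbours, 257 (3.30%) were called in both CBP 60 h and neither WT 60 h library, where 4.09% of all regions outside the set were. In the other direction 290 (3.72%) were called in both WT 60 h and neither CBP 60 h library, against 3.26% of all regions outside the set. Both shares lay within 1 percentage point of the background and are no result about the neighbours.

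Around the 2887 CBP 0 h only regions, the 60 h values ran the other way between the labels. The share of neighbours called, less the share farther away, was -1.77 and -1.29 points in CBP 60 h and -2.82 and -3.45 in WT 60 h. At 0 h it was 1.17 and -0.0381 points in CBP and -1.77 and -1.27 in WT.

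WT 0 h only regions lay inside genes more often, and at gene ends less often, than regions of the whole series. Of the 3658, 2102 (57.5%, 95% Wilson interval 55.9 to 59.1) had their summit inside a protein-coding gene, against 53.9% of all regions. The share was 48.2% (46.4 to 50.04) in CBP 0 h only regions, 51.2% (46.2 to 56.2) in the 379 WT 60 h only regions and 43.2% (40.7 to 45.7) in the 1542 CBP 60 h only regions. It was 54.6% in the 10145 regions called in all 4 libraries at 0 h and none at 60 h. In the 5708 regions called in both WT 0 h libraries and 1 other, the nearest to the set by rule, it was 55.8% (54.5 to 57.1), an interval that overlaps that of the WT 0 h only regions. The intervals cover counting error only, since regions are not replicates of a condition, and no test was made of these shares.

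The shares inside genes were also taken within one range of peak strength, chosen after seeing the data. Among regions whose weaker WT 0 h −log10 q was from 3 to 6, 59.4% of 2014 WT 0 h only regions were inside genes, against 54.1% of 16285 other regions called in both WT 0 h libraries. In regions called in both and in 1 other library it was 56.2% of 2950. The part of peak strength in these shares was not tested. The share for CBP 0 h only regions in the same range of their own lists was 48.8%. With the lists cut to 82696 peaks, the shares were 56.6% for WT 0 h only regions and 46.6% for CBP 0 h only regions. For the other regions called in both WT 0 h libraries it was 54.7% in that setting, closer to the WT 0 h only regions.

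Only 100 WT 0 h only regions (2.73%) had their summit within 1 kb of either end of a gene, against 9.10% of all regions and 21.8% of the 50575 regions called in all 8 libraries. In the range of −log10 q from 3 to 6 the share was 2.73%, against 5.45% of the other regions called in both WT 0 h libraries. Over all strengths, low shares were common to the similar sets. The share was 2.33% in CBP 60 h only, 3.17% in WT 60 h only, 3.91% in CBP 0 h only, 3.18% in the regions called in all 0 h and no 60 h libraries, and 3.64% in those called in both WT 0 h libraries and 1 other. The genes that held a summit of a WT 0 h only region had a median length of 126 kb, close to the 128 kb over all regions, and the median was 155 kb for CBP 0 h only regions. For 68.6% of the WT 0 h only regions inside a gene, that gene also had a region at one of its ends that was called in all 8 libraries, against 60.3% for CBP 0 h only regions and 64.2% over all regions. The gene table gives no strand, exons or introns, so promoters cannot be told from the other end of a gene.

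**Figure D3:**
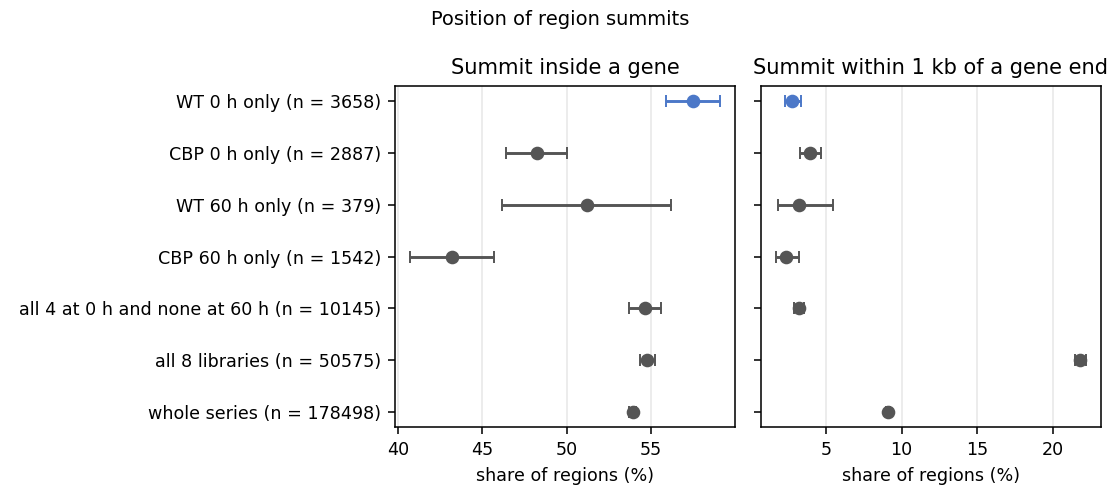
Points give the share of regions (horizontal axes, %) with the summit inside a gene (left) and within 1 kb of either gene end (right), with 95% Wilson intervals, for 7 sets of regions. WT 0 h only regions stand highest on the left, at 57.5%, and at 2.73% on the right, where regions called in all 8 libraries stand at 21.8%.

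Of the 10 strongest WT 0 h only regions, 7 lay inside a gene. All 10 stayed in the set under a −log10 q of at least 5 and with the lists cut to 82696 peaks. Their choice by strength fixed this in advance, so it says nothing about how stable the set is. The first lay inside IMMP2L, a subunit of the inner mitochondrial membrane peptidase, on chromosome 18 from 34754553 to 34755164 (Sscrofa11.1), and its −log10 q was 18.7 and 22.0 in WT 0 h replicates 1 and 2. The second lay inside PWP1, a ribosome biogenesis factor, on chromosome 5 from 12710844 to 12711662, with 20.2 and 18.3. The third lay inside RNF144B, a ubiquitin ligase, on chromosome 7 from 14113488 to 14114423, with 24.0 and 18.2. Both libraries therefore called these sites well above the median of the set, and no peak of another library lay within 5.35 kb, 2.72 kb and 10.4 kb of them.

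Further strong regions lay inside genes of DNA repair, translation and ubiquitin handling. ATM, the kinase that signals DNA breaks, held one on chromosome 9 from 36664964 to 36665761, where the −log10 q was 17.1 and 22.0. EIF4G3, a scaffold of translation initiation, held one on chromosome 6 from 79279268 to 79280108, with 17.1 and 17.3. UBE3A, a ubiquitin ligase, held one on chromosome 1 from 141917291 to 141918084, with 17.0 and 21.5. The region at USP50 on chromosome 1, from 121304300 to 121305226, was 1.17 kb from an end of the deubiquitinase gene USP8 and had 19.5 and 16.7.

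The other 3 lay between genes. They were nearest to ARMC1 (chromosome 4, 69043095 to 69044221, −log10 q 18.02 and 23.9), to the LIM domain-binding gene LDB2 (chromosome 8, 12055994 to 12056543, 17.9 and 24.4) and to ATP11B, a phospholipid flippase (chromosome 13, 120480761 to 120481654, 17.1 and 17.3). The ATP11B region was 246 kb from the gene.

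At gene ends, the strongest WT 0 h only region lay 461 bp from an end of the zinc finger gene ZNF473 (chromosome 6, 55008384 to 55008954, −log10 q 11.95 and 17.4). The next lay 849 bp from HNRNPC, an RNA-binding protein of pre-mRNA (chromosome 7, 77978906 to 77979776, 11.4 and 11.4), and 137 bp from TRMT12, a tRNA-modifying enzyme (chromosome 4, 15158607 to 15159021, 9.94 and 12.7). CDKN2D, an inhibitor of the cyclin D kinases, had one at 262 bp (chromosome 2, 69337578 to 69337810, 9.66 and 10.5), and DMC1, a meiotic recombinase, at 890 bp (chromosome 5, 9430242 to 9430489, 9.04 and 8.74). The sites at ZNF473, CDKN2D and DMC1 had a peak of another library at 0.547 kb, 0.188 kb and 0.182 kb, while those at HNRNPC and TRMT12 were 3.74 kb and 22.3 kb from the nearest.

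In all, 1011 WT 0 h only regions (27.6%) had a peak of another library within 1 kb, and 44 (1.20%) within 100 bp. The median distance to the nearest peak of the other 6 libraries was 2.95 kb, and 47 regions were more than 50 kb away. By library, a peak within 1 kb was found for 11.3% and 11.7% in CBP 60 h, 13.3% and 11.9% in WT 60 h, and 22.8% and 19.2% in CBP 0 h. At 60 h these shares within 1 kb were slightly higher in WT than in CBP libraries. Within 10 kb this was not so, with 63.9% and 62.6% in CBP 60 h and 63.5% and 62.0% in WT 60 h. The measure is linked to the rule and was not tested.

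WT 0 h only regions were spread thinly over genes. Linked to the nearest gene end within 50 kb, 2289 of them fell to 2020 of 17500 genes, of which 1778 had 1 and 220 had 2. Of all 114643 linked regions, 2.0% were WT 0 h only. CBP 0 h only regions fell to 1536 genes, and 235 genes had both, which is 11.6% of the WT 0 h only genes and 15.3% of the CBP 0 h only genes. Genes with many linked regions stand first in such a count more easily, so its total is given with each.

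DYNC2H1, the heavy chain of the dynein that carries cargo back along cilia (chromosome 9, 33720920 to 34039954), had 5 of 13 linked regions in the set and 0 CBP 0 h only regions. Of these, 1 lay inside the gene and 4 beyond its upper end, at 4.04 kb to 41.5 kb from it. The 4 spanned 38.0 kb, from 34043623 to 34081610, which was the shortest of the clusters with 4 members within 50 kb, the highest number found. Their −log10 q in the weaker library was from 2.53 to 6.81. Its 8 other linked regions were called 2 and 1 times in CBP 60 h, 1 and 1 in WT 60 h, 4 and 4 in CBP 0 h, and 3 and 6 in WT 0 h. With peaks merged within 500 bp, DYNC2H1 had 4 of 11 linked regions in the set.

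**Figure D4:**
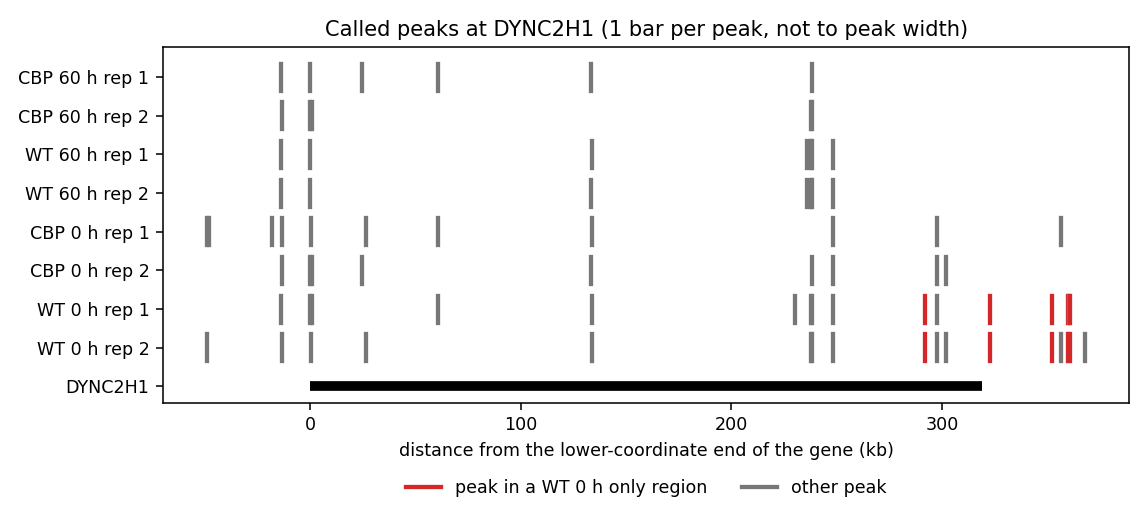
Called peaks in each of the 8 libraries along DYNC2H1, by distance from the lower-coordinate end of the gene (horizontal axis, kb); each bar marks the centre of 1 peak and the black line the gene. The 5 WT 0 h only regions (red) lie toward and beyond the upper end, 2 of them less than 1 kb apart.

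PARP8, an ADP-ribosyltransferase (chromosome 16, 30304800 to 30486416), had 5 of 34 linked regions in the set and 1 CBP 0 h only region, with a weaker −log10 q from 2.53 to 6.81. MAP4, a microtubule-associated protein (chromosome 13, 30633049 to 30805183), had 4 of 19, all inside the gene, with 2.18 to 7.84. With 3 each came SETD5, FNTB, the beta subunit of protein farnesyltransferase, ATP2C1, a calcium and manganese pump of the Golgi, SAMD13, CACNA1G, a T-type calcium channel, AXIN2, a feedback inhibitor of Wnt signalling, CNBP, SLC7A11, a cystine transporter, and the transcription factor MITF. Of these 12 genes 9 had a region at a gene end called in all 8 libraries. The share over all genes was not taken, so this count does not set them apart.

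The counts at these genes changed with the limit set on peaks. At a −log10 q of at least 5, DYNC2H1 and PARP8 had 4 each and MITF 3, while AXIN2 and SLC7A11 had 0. With the lists cut to 82696 peaks, 8 of the 12 genes had no WT 0 h only region and DYNC2H1 had 1. By share, ATG14 (autophagy), BOLL, DZANK1, HOMER3, IFT81 (transport within cilia) and INTS2 (a subunit of the Integrator complex) each had 2 of 5 linked regions in the set, first by name among genes with at least 5.

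The next clusters by length lay at NFATC3, a calcium-regulated transcription factor, with 4 members within 39.5 kb (chromosome 6, 28700104 to 28739634), and inside DIAPH3, an actin-nucleating formin, with 4 members within 42.3 kb (chromosome 11, 32817551 to 32859892). No other region was called between the 4 members at DIAPH3. In all, 27 such clusters of at least 3 members within 50 kb were found, and 204 members (5.58%) had another within 10 kb.

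Of 19 gene lists, 8 held a share of WT 0 h only regions above the 2.0% of all linked regions and 11 a share at or below it. Each list held 0 to 9 such regions, too few to set one apart from another. These lists were chosen with earlier results of the same data known, and the counts are given without a test.

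The unfolded protein response list, genes that restore protein folding in the endoplasmic reticulum, had 6 of 129 linked regions (4.65%) in the set, at 5 of 18 genes. It held 0 CBP 0 h only regions, as did the housekeeping list. Over all genes 1681 of 114643 linked regions were CBP 0 h only, so a count of 0 does not set the list apart. ATF6, a membrane-bound transcription factor of this response, had 2 inside the gene, on chromosome 4 from 88621018 to 88621420 (−log10 q 5.79 and 6.41) and from 88624717 to 88625287 (9.66 and 8.998). XBP1, the factor activated by splicing, had 1 at 5.08 kb from the gene (chromosome 14, 46021473 to 46021769, 7.63 and 11.7). DNAJC3, a chaperone partner, had 1 (chromosome 11, 65293111 to 65293354, 4.04 and 4.22), and EDEM1 and ERN1, the sensor that splices XBP1, had the others. With the lists cut to 82696 peaks it held 3 of 102 (2.94%), against 0.966% of all linked regions.

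Acetyltransferase and bromodomain genes had 8 of 248 linked regions (3.23%) in the set. NCOA1, a nuclear receptor coactivator, had 3 of 18 and KAT7, a histone acetyltransferase, had 2 of 6, of which that inside the gene reached a −log10 q of 10.8 and 17.3 (chromosome 12, 25982717 to 25983189). EP300 had 1 of 8, inside the gene on chromosome 5 from 7357494 to 7357951, with 7.56 and 7.54. BRD7 and KAT2B had the others, and CREBBP had none.

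The muscle lists lay near the background. Myogenic regulators had 5 of 186 linked regions (2.69%), with 1 each at MYF5, MYF6, SIX4, MEF2D and TEAD1 and none at MYOD1 or MYOG. The site nearest MYF5, a determination factor, lay at 5.35 kb inside a neighbouring gene without a name (chromosome 5, 100747907 to 100748170, −log10 q 6.96 and 2.52), and that nearest MYF6 at 10.8 kb (100775415 to 100775686, 4.02 and 7.68). Satellite cell and Notch genes had 5 of 319 (1.57%), among them CXCR4, SDC4, CAV1, MET and NCAM1. Sarcomere and contraction genes had 4 of 284 (1.41%), with 1 each at DES, MYH7, MYOM2 and RYR1, and myoblast fusion and adhesion genes had 7 of 315 (2.22%). The site at MYH7, a slow myosin heavy chain, was 0.151 kb from a peak of another library, and that at DES, the muscle intermediate filament, 0.660 kb.

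**Figure D5:**
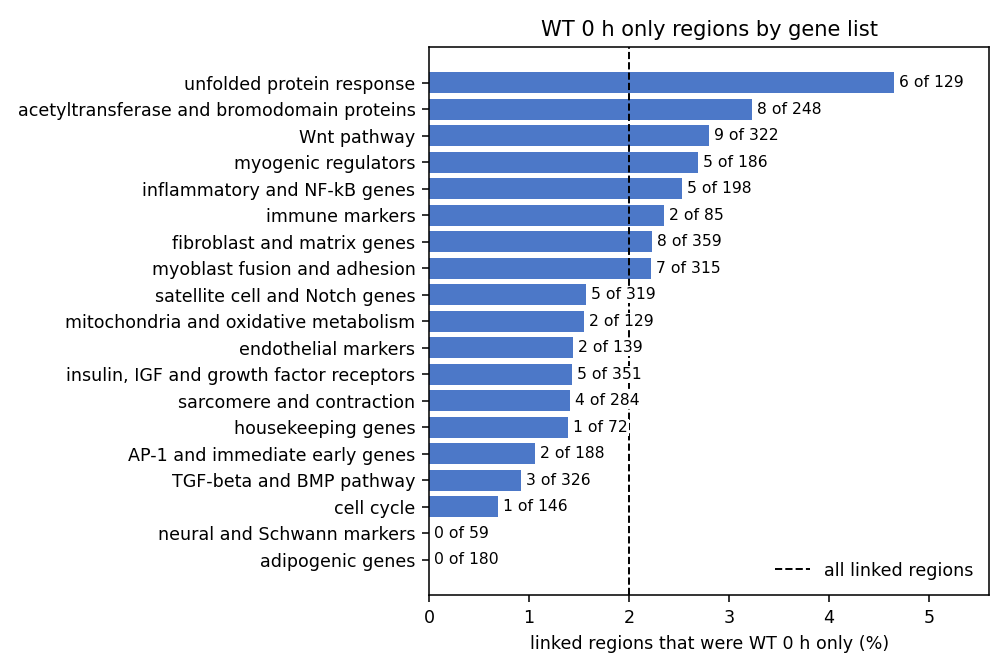
Bars give the share of each list's linked regions that were WT 0 h only (horizontal axis, %), with the count beside each bar. The dashed line marks 2.0%, the share over all linked regions, and 8 of 19 lists lie above it.

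Wnt pathway genes had 9 of 322 (2.80%). Of these, 3 were linked to AXIN2, at 3.39 kb, 18.1 kb (inside CEP112) and 33.3 kb from a gene end. CTNNB1, the transcriptional effector beta-catenin, had 1 at 48.6 kb, inside ULK4, and the ligand WNT5A had 1 at 2.83 kb. With the lists cut to 82696 peaks the Wnt list had 0 of 234. Fibroblast and matrix genes had 8 of 359 (2.23%), with 3 of 31 at the matrix protein TNC and 2 of 12 at the proteoglycan DCN, and 1 at DCN lay 5 bp from a gene end. The 3 at TNC each lay within 0.371 kb of a peak of another library. Inflammatory and NF-kB genes had 5 of 198 (2.53%), with 2 of 9 at CXCL8, a chemokine. Insulin, IGF and growth factor receptor genes had 5 of 351 (1.42%), with 2 of 13 at IGFBP5, an IGF-binding protein.

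The remaining lists held 3 or fewer. TGF-beta and BMP genes had 3 of 326 (0.920%), AP-1 and immediate early genes 2 of 188 (1.06%), mitochondria and oxidative metabolism genes 2 of 129 (1.55%), cell cycle genes 1 of 146 (0.685%), at RBL1, and housekeeping genes 1 of 72 (1.39%), at EEF1A1. Adipogenic genes had 0 of 180. Of markers of other cell types, endothelial genes had 2 of 139, immune genes 2 of 85 and neural and Schwann genes 0 of 59. With the lists cut to 82696 peaks, neural and Schwann genes had 2 of 42 (4.76%), the highest share of the 19 lists in that setting, and endothelial and immune genes had 0. The part of other cell types in these counts was not tested.

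By chromosome, the share of regions that were WT 0 h only was from 1.70% on chromosome 5 (144 of 8490) to 2.62% on chromosome 10 (147 of 5611). On chromosome X it was 2.40% (106 of 4408). Its Wilson interval of 1.99 to 2.90 holds the 2.05% over all regions. CBP 0 h only regions made up 1.07% of regions there (47), their lowest share on any chromosome. Their highest was 2.03% on chromosome 17 (111). A difference between the labels on chromosome X was not tested.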

How the data were processed

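ATAC-seq was analysed in 8 libraries, grouped by their titles. Per the submitters' processing notes, the authors used Trimmomatic and MACS2 2.1.0 on Sscrofa11.1, while the aligner, duplicate removal and transposase shift are steps not given in the sources used here. The authors deposited 1 peak list per library, with a score, a fold enrichment (ratio over local background), a −log10 p and a −log10 q per peak, all their own values. A peak's summit pileup and background were solved from the authors' fold, with a pseudocount of 1, and −log10 p; 100% of pileups came out whole within 0.05 reads, and each library's most frequent background gave its relative depth.

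Peaks were merged and linked with Python 3.11.15, numpy 2.4.6, pandas 2.3.3 and scipy 1.17.1. Member recovery, the neighbour measure and the permutation were tested on simulated data. Regions were linked by their strongest summit to the nearest end of a RefSeq protein-coding gene (Sscrofa11.1) within 50 kb; 377 of 397 list entries matched by symbol. The planned use of strand and the search for motifs were not run, since no genome sequence or strand was used here. Values across libraries were compared by two-sided exact permutation, and replicate numbers were not used to pair libraries.

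Genes and regions named are the 12 with most members, the 6 with the highest share of at least 5 linked regions, the 10 strongest members, up to 3 genes per list, the 5 strongest at gene ends and the 3 tightest clusters; further genes of a list are named as its remaining hits, and CREBBP, MYOD1, MYOG and PAX7 were chosen after their values were seen. Members and lists were chosen with earlier results of these data known.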

Additional observations from a re-analysis of the deposited data

How the results depend on the processing

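Which regions met the rule depended on how many peaks each list held. With every list cut to its 82696 strongest peaks (equal peak numbers) 1305 regions met the rule, and they overlapped 339 (9.27%) of the 3658. At a −log10 q of at least 5 the number was 3427, overlapping 1465 (40.05%). Leaving out 1 library gave 3821 to 12169 regions, with 12169 and 9651 without WT 0 h replicates 1 and 2 and 7241 without CBP 0 h replicate 1. The share inside genes was 56.8% to 57.5% without 1 library and 59.4% at a −log10 q from 3 to 6. The share at gene ends was 2.69% to 3.88% without 1 library, 2.22% with equal peak numbers and 15.0% within 5 kb. The median weaker −log10 q was 9.76 with equal peak numbers, 6.59 at a −log10 q of at least 5, 5.37 with a cover of 50% of the region, and 4.28 to 4.69 without 1 library. The median width was 576 bp, 499 bp and 489 bp in those 3 settings, 459 bp with peaks merged within 500 bp, and 278 to 439 bp without 1 library. The share of linked regions that were WT 0 h only was 0.966%, 2.39%, 2.74% and 1.84% in these 4 settings, 1.78% with links within 10 kb, and 2.11% to 7.02% without 1 library. With equal peak numbers 20.8% had a peak of another library within 1 kb, and the 60 h difference was -22.1 points; without 1 library that difference was -11.9 to -3.94 points.

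The neighbour difference between CBP and WT libraries was -3.17 to -1.73 points without 1 library and -2.77 with labels exchanged within each time (exact permutation p = 0.0556); it kept its sign in every alternative run. That of the other 6 libraries from WT 0 h was -2.70 to -1.31 points without 1 library. It passed only without WT 60 h replicate 1 (-2.70 points, exact permutation p = 0.0476, the smallest that 21 arrangements allow). The difference was not free of the rule, which required calls in WT 0 h, so this is no independent support. With the replicate block it was -2.29 points (exact permutation p = 0.188, 16 arrangements); same-numbered libraries did not deviate together (correlations -0.0127 to 0.00449 over 6 pairs of groups). The limit on −log10 q from 3 to 6, the exchange within times and the 60 h calls were chosen after seeing the data. The causes of these shifts were not tested. The depth limits what can be said of a missing call: a site without a peak in a shallower library was not detected there, which does not show that it was closed.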
